A study of Mus musculus with 12 samples.

Results

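Mouse genes whose symbol ends in os are named as opposite-strand transcripts: the suffix says that the gene lies on the other DNA strand at or beside the gene whose symbol it carries. In the count table, 331 rows ended in os or in os and digits. The members described here are the 304 of these rows whose partner, the gene of the stripped symbol, also had a row, and they belong to 259 partner rows. The whole table held 55487 rows. A further 26 rows ended in os without a partner row, such as the protein-coding genes Sos1 and Nos3, whose names are not antisense names. The 304 rows carry 301 distinct symbols, because Dlx6os1, Nkx2-2os and Tmem147os each occur in 2 rows, and 33 partner genes have more than 1 os row.

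RNA was measured in nasal tissue of C57BL/6 male mice aged 6 weeks, labelled as nasal epithelium, in 12 libraries of 3 groups. The vehicle group received PBS and was labelled day 10 (replicates 2, 4, 5 and 6). The other groups were exposed to KDP20, which the series title places among diesel particles, and were taken at day 5 (replicates 5, 6, 7 and 8) or day 10 (replicates 1, 2, 3 and 5). There is no vehicle group at day 5, so exposure and day cannot be told apart in the comparison of day 5 with vehicle. The labels do not say that each library is a separate animal, so the p-values measure the spread between libraries, which may be technical. Values listed for 4 libraries below follow the order of these replicate numbers.

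Antisense transcripts can act on the gene they face, by blocking its transcription, by recruiting chromatin modifiers or by pairing with its RNA, while others are by-products of a promoter that fires in both directions or serve as the host of a microRNA. Pairs in which neither gene contains the other are called head-to-head here where the os gene runs out beyond its partner's start. The distance between the starts has no limit in this definition. All other such pairs are called tail-to-tail. Counting RNA from genes on opposite strands depends on knowing the strand of each read. The strand setting of the authors' counting is not given in the sources used here. In every pair with overlapping exons the reads of the os gene and of its partner therefore cannot be told apart. The same doubt holds for os exons that face introns of the partner or exons of another gene. Below, "level of a row" means the counts given to it.

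In GENCODE M21 (GRCm38), all 304 os identifiers and all 259 partner identifiers were found. The annotation calls 257 of the os rows antisense, 16 processed transcript, 12 lincRNA and 11 protein-coding, and every partner is protein-coding. By layout, 124 os genes lie inside their partner, 85 are head-to-head and overlap it, 42 are head-to-head and stay apart, 29 are tail-to-tail and overlap, 14 are tail-to-tail and apart and 10 span the partner. Of the head-to-head pairs, 72 have start sites within 1000 bases of each other.

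The os rows as a set held more counts than their partners. They took 1.33% to 1.80% of the counts of a library, against 0.739% to 0.922% for the partner rows. The 3 lowest os shares, 1.33%, 1.46% and 1.44%, were those of day 10 replicates 2, 3 and 5. These 3 libraries also had the highest share of counts in the row CT010467.2, a row absent from the annotation used here, with 25.5%, 17.9% and 22.9% against 11.2% in day 10 replicate 1, 9.69% to 12.6% at day 5 and 7.25% to 10.1% in vehicle. Depth ran from 1658420 to 3227138 counts per library, so that 3 counts, taken as the detection floor, correspond to 0.930 to 1.81 CPM, counts scaled to the same total in every library. In own rows, the 11 olfactory sensory neuron markers together reached 299.9 to 503 CPM, the 6 secretory markers 408 to 742 CPM and the 5 ciliated cell markers 128 to 298 CPM, the lowest at day 10. The 6 sustentacular and Bowman gland markers ran from 634 to 1097 CPM in vehicle, 443 to 1139 at day 5 and 361 to 678 at day 10. Of all rows tested, edgeR called 7.08% at day 10 against vehicle and 10.1% at day 10 against day 5. Of the 3 ciliated and the 6 gland markers tested, 1 gene each was called at day 10 against vehicle and 1 each against day 5. Of the 5 secretory markers tested, 1 gene was called at day 10 against day 5. The part of these cells in the member results was not tested. The neutrophil markers S100a8 and Ly6g held 0 counts in all 12 libraries, and the list of 5 neutrophil markers reached at most 1.51 CPM. In bulk tissue, fewer cells of a type and less RNA per cell cannot be told apart. As the strand setting of the counting is not given, these values are counts given to the marker rows. A low count or a count of 0 in such a row does not show that the RNA of the gene was absent.

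Of the 304 os rows, 24 held 0 counts in every library and 195 passed the filter on low counts, as did 133 of the 259 partner rows. A ratio of os to partner counts was taken over the 153 pairs in which both rows held at least 5 counts per library on average. The os row exceeded the partner row in 114 of these, with a median ratio of 2.54 and quartiles of 0.995 and 9.50. In 89 pairs the os row was higher in all 12 libraries, in 29 it was higher in no library, and in 35 the order varied between libraries. By counts per kb of exon, which allows for the longer exons of the partners, the median ratio was 11.5.

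**Figure D1:**
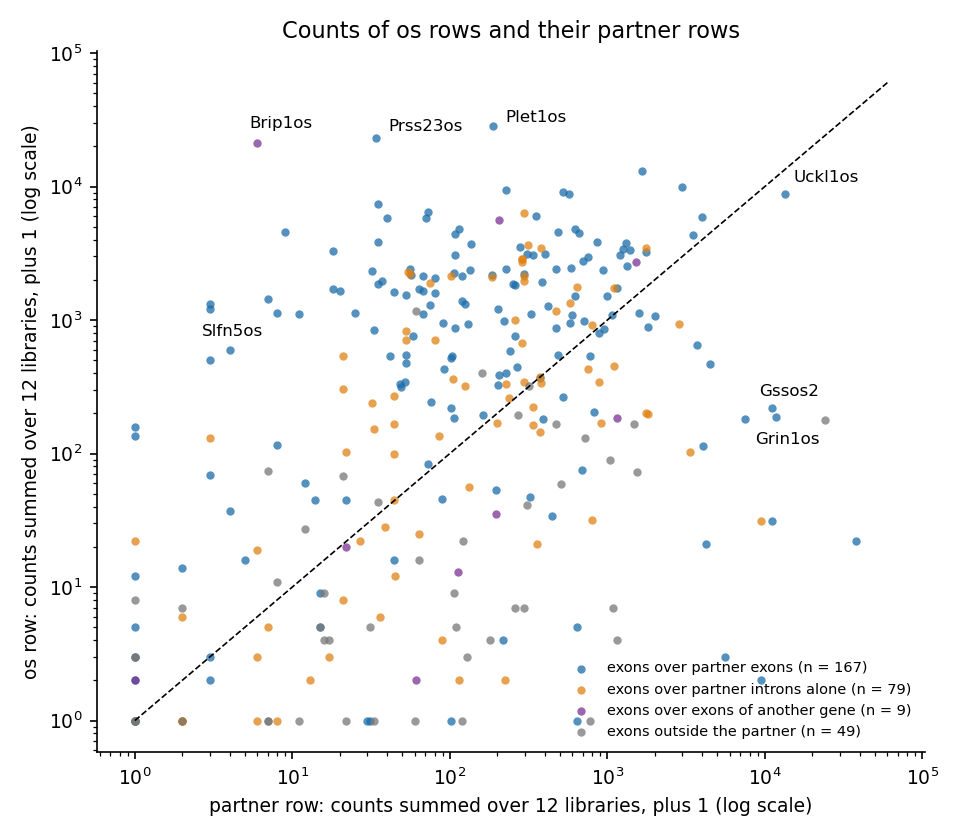
Counts summed over 12 libraries, plus 1, of each os row (vertical axis) and its partner row (horizontal axis), both on log scales, with 1 point per pair and colours for where the os exons lie; the dashed line marks equal counts. Of the 153 pairs with enough counts in both rows, 114 lie above the line, and Grin1os and Gssos2 lie far below it.

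The level of an os row followed where its exons lay. The 167 os rows with exons opposite exons of the partner had a median of 783 counts per kb, and 79.0% of them passed the filter. The 79 rows whose exons faced introns of the partner alone had a median of 231 counts per kb, and 64.6% passed. The 49 rows with all exons outside the partner had a median of 4.46 counts per kb, and 16.3% passed. A further 9 rows faced exons of another gene and had a median of 21.9 counts per kb, with a range of 0.185 to 3279. These are values over annotated genes in the same 12 libraries and carry no test.

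**Figure D2:**
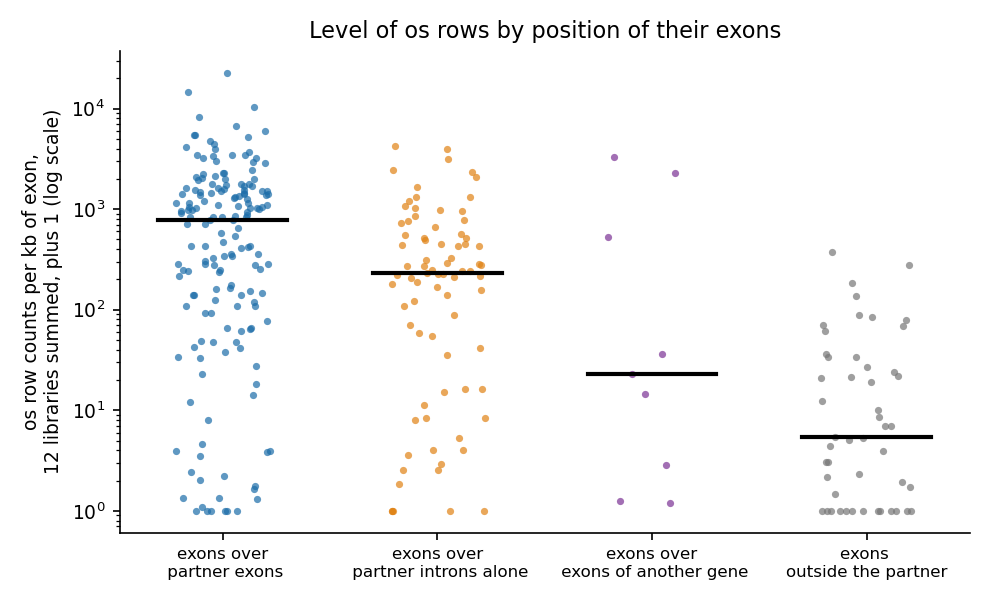
Counts per kb of exon of each os row, summed over 12 libraries, plus 1 (log scale), by the position of its exons; bars are medians. The medians fall from 783 for exons over partner exons to 231 for exons over partner introns alone and 4.46 for exons outside the partner.

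The ratio of raw counts to the partner followed the same order. It was above 1 in 82 of 100 pairs with overlapping exons (median 3.69), in 27 of 40 pairs with exons over introns alone (median 1.78) and in 3 of 10 pairs with exons outside the partner (median 0.264). By counts per kb the order of the first 2 classes turned, with medians of 12.5 over exons and 14.7 over introns alone, against 0.351 outside the partner. With at least 20 counts per library in both rows the ratio was above 1 in 43 of 54 pairs over exons and in 18 of 23 over introns alone. Among the 42 head-to-head genes that stay apart from their partner, 11.9% passed the filter and the median was 2.49 counts per kb. The 11 protein-coding os genes stood apart from the antisense ones in this respect: in 7 of them with enough counts the median ratio was 0.176, against 2.93 over 131 antisense pairs. Partner rows showed a like pattern. The 42 partners that face an exon of a gene other than an os gene had a median of 129.7 counts per kb, the 130 that face an os exon alone 22.6, and the 87 with no opposite exon 9.23.

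The os rows with the most counts were chosen by their totals over the 12 libraries. Plet1os, opposite the epithelial surface protein Plet1, held 28317 counts against 186 in Plet1. Prss23os held 23285 against 33 in the serine protease Prss23, and Rab10os 12967 against 1652 in the small GTPase Rab10. Brip1os held 21307 counts and starts 177 bases from Brip1, a DNA repair helicase with 5 counts. Its exons do not overlap Brip1 but face 800 bases of exons of Med13 or Ints2, which code for subunits of Mediator and Integrator. Ube4bos1 (9377 against 225), Sorbs2os (9156 against 520), Kdm6bos (8731 against 572) and Anxa11os (7445 against 34) also exceeded their partners in all 12 libraries. Uckl1os was the exception among the 10 most abundant, with 8754 counts against 13442 in Uckl1, a uridine-cytidine kinase homologue, and it was below its partner in all 12 libraries.

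At the other end, the lowest ratios belonged to pairs with an abundant partner row, which the limit of 5 counts per library in the os row makes necessary. Grin1os held 188 counts against 11807 in Grin1, the obligatory NMDA receptor subunit, although 1307 of its 2891 exon bases lie opposite Grin1 exons. Gssos2 held 217 against 11057 in the glutathione synthetase Gss, which also faces Acss2. Zfp335os held 179 against 7524 in Zfp335, which faces Pcif1, and Wdr83os 112 against 4035 in Wdr83. Wdr83os codes for a protein of the endoplasmic reticulum that helps membrane proteins fold. Below the count limit for the ratio, Pigbos1, which codes for a mitochondrial microprotein, held 21 counts against 37802 in Pigb, a mannosyltransferase of the GPI anchor pathway that faces 2170 exon bases of Ccpg1.

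Os rows of the same partner ranged from near-equal to far apart. The 33 partners with more than 1 os row have 78 os rows. In 4 of them the lowest os row held 0 counts, and in 11 of the other 29 the highest os row held at least 10 times the counts of the lowest (median 4.27 times), while in 7 the rows were less than 2-fold apart. Per kb of exon the median was 3.12 times, with 6 partners at 10 times or more and 13 under 2-fold. At Fhad1, a gene of a forkhead-associated domain protein, Fhad1os1 held 2088 counts and Fhad1os2 2162. Dlx6os2, over exons of the homeobox gene Dlx6, held 1726 counts, while a Dlx6os1 row outside it held 3. Tbx3os1, over exons of the T-box factor Tbx3, held 760, and Tbx3os2, outside it, held 6. At Sox5, Sox5os1 held 1632 counts and Sox5os5, over introns, 44, or 1030 and 213 per kb. Runx2os2, over introns of the osteoblast factor Runx2, held 3434 against 199 for Runx2os3, also over introns.

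At day 10 against vehicle, edgeR called 18 of the 195 tested os rows after Benjamini-Hochberg adjustment over all rows tested, 10 higher and 8 lower. That is 9.23%, beside 7.08% of all 13181 tested rows (3.93% higher and 3.15% lower). Of the 133 tested partner rows 7 were called (5.26%), 5 higher and 2 lower. At an unadjusted p under 0.05 there were 54 os rows (27.7%) and 33 partner rows (24.8%), beside 23.8% of all tested rows. The median log2 fold change was 0.04 over the os rows, 0.10 over the partner rows and -0.01 over all tested rows.

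The largest rise was that of Nphs1os (chr7:30462164-30465591, minus strand, GRCm38), which lies inside Nphs1, the gene of the podocyte slit protein nephrin. Nphs1os held 68.5, 63.2, 50.8 and 57.1 CPM in vehicle, 51.8, 58.2, 56.1 and 48.9 at day 5, and 62.8, 211, 144 and 254 at day 10. Replicates 2, 3 and 5 of day 10 were above every other library, and replicate 1 lay within the vehicle range. The log2 fold change was 1.48 (SE 0.25, edgeR adjusted p 0.00500). Nphs1 itself held 0 to 8 counts per library and was not tested, and 597 of the 1339 exon bases of Nphs1os face its exons.

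Cdk19os (chr10:40348508-40350103, minus strand) lies inside Cdk19, a kinase of the Mediator complex. Cdk19os held 17.8, 24.3, 22.3 and 37.6 CPM in vehicle, 33.1, 27.4, 32.7 and 30.2 at day 5, and 50.9, 69.3, 57.7 and 70.8 at day 10. All day 10 libraries were above all others, replicate 1 included. The rise against vehicle was 1.28 (SE 0.21, edgeR adjusted p 0.00500), and that against day 5 was 1.01 (SE 0.21, 0.00449). Cdk19 held 5 to 22 counts per library and its log2 fold change at day 10 was -0.03 (SE 0.50, adjusted p 0.978). The difference between the 2 rows is given with the ratios below.

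Zfhx2os (chr14:55053869-55075873, plus strand) overlaps 3255 exon bases of Zfhx2, a zinc finger homeobox factor. It held 195, 180.4, 225 and 189.8 CPM in vehicle, 193, 219.8, 203 and 209 at day 5, and 222, 379.7, 324 and 356 at day 10. As with Nphs1os, replicate 1 of day 10 lay among the vehicle libraries and the other 3 above all. The log2 fold change was 0.70 (SE 0.14, edgeR adjusted p 0.00878). Zfhx2 was at 0.19 (SE 0.19, 0.595) in the same comparison.

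The other os rows called higher at day 10 against vehicle were Rapgef3os1 (1.01, SE 0.26, edgeR adjusted p 0.0204), Arhgap27os2 (0.69, SE 0.16, 0.0136), Nckap5los (0.59, SE 0.17, 0.0377), Lef1os1 (0.57, SE 0.16, 0.0356), Anxa11os (0.47, SE 0.13, 0.0281), Runx2os1 (0.45, SE 0.14, 0.0472) and Kdm6bos (0.43, SE 0.13, 0.0430). Their partners include Rapgef3, a cyclic AMP sensor, Lef1, a transcription factor of the Wnt pathway, and Kdm6b, a histone H3K27 demethylase. All 10 os rows called higher have exons over exons of their partner, as do 67.7% of the tested os rows, and so do 4 of the 8 called lower.

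The os row called lower with the smallest p was Dhrs13os, which starts 385 bases from the start of Dhrs13, a short-chain dehydrogenase, and also faces 528 exon bases of Phf12. It held 150.2, 167, 157 and 179 CPM in vehicle, 152, 131, 178 and 180.4 at day 5, and 142, 85.8, 77.8 and 69.7 at day 10. Every day 10 library was below every vehicle library, replicate 1 narrowly so. The log2 fold change was -0.79 (SE 0.18, edgeR adjusted p 0.0121), while Dhrs13, with 5 to 18 counts per library, was at 1.34 (SE 0.45, 0.0719).

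Lrrc8dos, inside the anion channel subunit gene Lrrc8d, held 192, 174, 259.8 and 215 CPM in vehicle and 204, 85.1, 72.8 and 97.7 at day 10 (-0.86, SE 0.22, edgeR adjusted p 0.0193). Phtf1os held 405, 359, 455 and 404 in vehicle and 412, 152, 209 and 218 at day 10 (-0.71, SE 0.19, 0.0280). In both rows replicates 2, 3 and 5 were below every vehicle library and replicate 1 was not. Phtf1os faces 448 exon bases of Phtf1 and 2101 of Rsbn1, a gene next to it. Fbxl12os (-0.61, SE 0.16, 0.0218), Cd55os (-0.55, SE 0.16, 0.0362) and Sorbs2os (-0.52, SE 0.15, 0.0346) were called lower as well. Cd55os lies apart from Cd55, a complement inhibitor, and faces 1087 exon bases of Cd55b or of the gene model Gm15675.

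Dnm3os, inside an intron of the dynamin gene Dnm3, is known as the host transcript of the microRNA genes Mir199a-2 and Mir214. It held 66.0, 75.2, 72.6 and 56.2 CPM in vehicle, 42.0, 40.4, 57.9 and 45.8 at day 5, and 62.8, 29.5, 11.3 and 36.6 at day 10. The groups of vehicle and day 10 overlapped through replicate 1, and the log2 fold change was -0.93 (SE 0.28, edgeR adjusted p 0.0441). Dnm3 was at -0.38 (SE 0.31, 0.487). The mature microRNAs of Dnm3os are shown because they are the known products of this row; libraries of this kind do not measure them. They are given 5′ to 3′ from RefSeq (GRCm38.p6), on the plus strand of chromosome 1, with the seed, bases 2 to 8, in capitals.
mmu-miR-199a-5p (chr1:162217844-162217866): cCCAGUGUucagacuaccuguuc
mmu-miR-199a-3p (chr1:162217883-162217904): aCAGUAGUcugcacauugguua
mmu-miR-214-5p (chr1:162223397-162223418): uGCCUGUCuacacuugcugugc
mmu-miR-214-3p (chr1:162223438-162223459): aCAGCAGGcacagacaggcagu
No 2 of these 4 share a seed. Of the other os rows, Dio3os contains Mir1247 and Tmcc3os contains Mir7211.

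Runx2 showed opposite calls for 2 os rows inside the same gene. Runx2os1, over Runx2 exons, held 129, 102, 103 and 122 CPM in vehicle and 142, 176, 147 and 159 at day 10, with no overlap between the groups (0.45). Runx2os2, over introns, held 169.7, 167, 140.1 and 155 in vehicle and 171, 48.7, 79.1 and 79.4 at day 10 (-0.73, SE 0.23, edgeR adjusted p 0.0498). Runx2os2 was low in replicates 2, 3 and 5 alone, and Runx2 had a log2 fold change of -0.06 (SE 0.16, 0.849). When each of the 12 libraries was left out in turn, the call of Runx2os1 was kept in 1 fit and lost in 11. The same was true of Runx2os2, so the contrast between the 2 rows rests on calls near the threshold.

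Among the partner rows, Grin1 held 436, 455, 388 and 417 CPM in vehicle, 433, 409, 427 and 389 at day 5, and 541, 606, 562 and 605 at day 10. All 4 day 10 libraries were above the other 8. Grin1os held 7.05, 3.92, 5.08 and 7.70 CPM in vehicle and 11.3, 13.0, 6.28 and 6.85 at day 10, with overlapping groups, and its log2 fold change of 0.67 (SE 0.38, edgeR adjusted p 0.289) was not called. Rapgef4, a cyclic AMP sensor related to Rapgef3, held 26.1, 19.0, 24.4 and 13.6 CPM in vehicle and 11.3, 8.24, 6.90 and 8.57 at day 10 (-1.23, SE 0.31, 0.0192). None of its 3 os rows was called: Rapgef4os1 was at 0.43 (SE 0.40, 0.561), Rapgef4os2 at 0.33 (SE 0.32, 0.567) and Rapgef4os3 at -0.76 (SE 0.34, 0.173).

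Phf2, a histone H3K9 demethylase, held 14.9, 16.2, 14.7 and 18.6 CPM in vehicle and 17.0, 30.9, 37.7 and 41.1 at day 10 (0.97, SE 0.25, edgeR adjusted p 0.0232). Phf2os1, whose start lies 7 bases from that of Phf2 in GENCODE, held 8.71, 10.9, 7.61 and 7.25 in vehicle and 10.8, 13.7, 15.1 and 13.7 at day 10 (0.60, SE 0.30, 0.231). Phf2 overlapped vehicle through replicate 1 of day 10, and so did Phf2os1. This pair is shown because its promoters lie over each other: the RefSeq windows (GRCm38.p6, 250 bases before to 50 after the start in RefSeq) share 165 bases, printed in capitals, 5′ to 3′ on the strand of each gene.
Phf2 (chr13:48870836-48871135, minus strand): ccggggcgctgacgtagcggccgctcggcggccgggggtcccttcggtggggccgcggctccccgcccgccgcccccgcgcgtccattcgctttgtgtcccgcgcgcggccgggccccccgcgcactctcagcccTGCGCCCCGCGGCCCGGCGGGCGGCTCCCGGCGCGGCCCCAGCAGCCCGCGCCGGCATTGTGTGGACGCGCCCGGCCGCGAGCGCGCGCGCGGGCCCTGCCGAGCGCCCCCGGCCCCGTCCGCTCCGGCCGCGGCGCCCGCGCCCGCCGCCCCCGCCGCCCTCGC
Phf2os1 (chr13:48870701-48871000, plus strand): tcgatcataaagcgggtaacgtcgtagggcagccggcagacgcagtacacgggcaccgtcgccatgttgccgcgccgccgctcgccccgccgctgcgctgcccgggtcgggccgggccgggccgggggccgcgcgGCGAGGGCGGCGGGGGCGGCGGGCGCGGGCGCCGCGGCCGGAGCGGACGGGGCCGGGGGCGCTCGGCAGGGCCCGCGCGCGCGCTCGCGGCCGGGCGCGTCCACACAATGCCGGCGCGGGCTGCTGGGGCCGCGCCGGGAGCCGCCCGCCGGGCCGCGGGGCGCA
The GC content of the Phf2 window is 87.0% and its CpG content, as observed over expected, 1.14, against medians of 52.7% and 0.389 over all 27025 promoters of the table. Over the 49 head-to-head os genes within 1000 bases of their partner's start that had an entry, the medians were 62.7% and 0.780, and over 62 of their partners 62.3% and 0.804.

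The other partner rows called at day 10 against vehicle were N4bp2 (0.99, SE 0.26, edgeR adjusted p 0.0226), Arhgap33 (0.73, SE 0.22, 0.0438), Ino80d (0.66, SE 0.18, 0.0326), a subunit of the INO80 chromatin remodeller, and Ccpg1 (-0.75, SE 0.19, 0.0189), a receptor for autophagy of the endoplasmic reticulum. Ccpg1 held 55.2, 73.8, 72.6 and 63.0 CPM in vehicle and 47.3, 28.1, 32.6 and 48.5 at day 10, with no overlap. Ccpg1 faces Pigb, and Ccpg1os, which starts 47 bases away, held 164 counts against 1475 in Ccpg1 over the 12 libraries.

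Replicates 2, 3 and 5 of day 10 lay beyond the vehicle range, in the direction of the call, for all 18 called os rows, and replicate 1 for 7 of the 18. The called rows also differed in base composition: the median GC content was 58.5% for the 10 higher os rows and 41.8% for the 8 lower ones, against 49.3% over all tested os rows. With a GC correction edgeR called 7 os rows, of which 5 were among the 18. Over the whole table it called 403 rows, beside 933 without the correction. With the share of CT010467.2 as a covariate it called 0 (7 at an unadjusted p under 0.05), and without replicates 2, 3 and 5 of day 10 also 0 (11 unadjusted). Both of these fits called 0 rows in the whole table. The part of composition, of CT010467.2 and of these libraries in the calls was not tested beyond these values.

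The count of 18 depended on single libraries. Among the vehicle libraries, omitting replicate 2 gave 6, replicate 4 gave 7, replicate 5 gave 8 and replicate 6 gave 7. Over the whole table these fits called 337, 399, 663 and 429 rows. Among the day 10 libraries, omitting replicate 1 gave 45, replicate 2 gave 3, replicate 3 gave 6 and replicate 5 gave 2. The calls over the whole table, 933 with all libraries, moved the same way in these 4 fits, to 2684, 192, 466 and 95. Nphs1os and Cdk19os were called in all 12 of these leave-out fits, and the other 16 lost the call in at least 1. Zfhx2os lost it in 1 fit and Dhrs13os in 2, while Dnm3os, Kdm6bos, Runx2os1 and Runx2os2 each lost it in 11. The count of 7 partner rows ran from 0, without day 10 replicate 2 (22 at an unadjusted p under 0.05), to 29, without day 10 replicate 1.

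**Figure D3:**
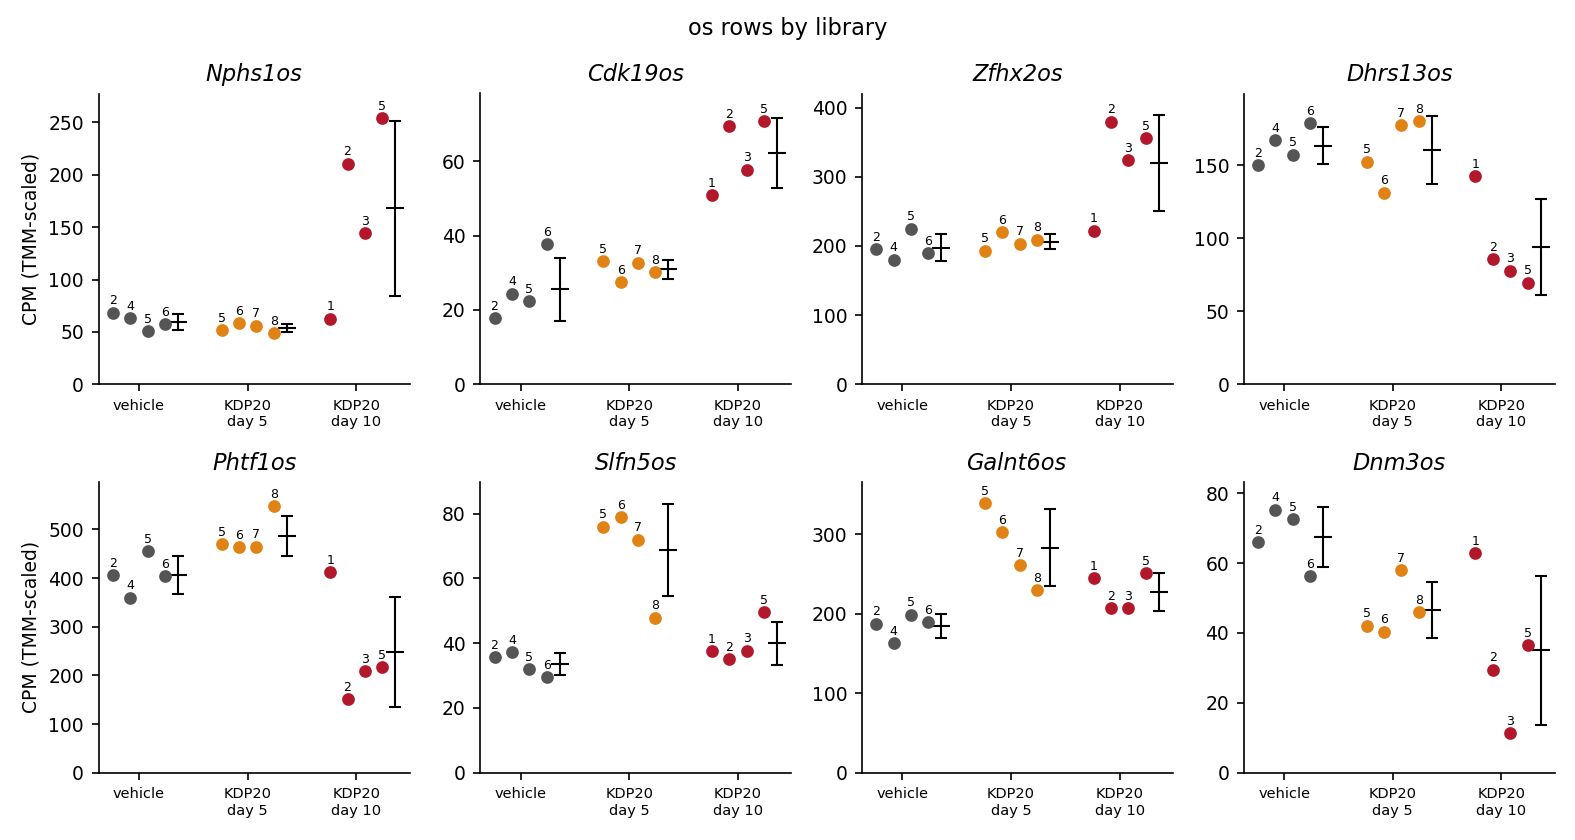
CPM of 8 os rows in each library; numbers beside points are replicate numbers, and bars show the mean and SD of 4 libraries. Replicate 1 of day 10 lies with vehicle in Nphs1os, Zfhx2os and Phtf1os, all 4 day 10 libraries are above vehicle in Cdk19os, and Slfn5os and Galnt6os are highest at day 5.

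At day 5 against vehicle, edgeR called 2 of 195 os rows (1.03%), both higher, beside 0.660% of all tested rows (0.410% higher). No partner row was called by edgeR among 133, where 14 had an unadjusted p under 0.05, DESeq2 called 5 and limma-voom 1. Among the os rows 47 (24.1%) had an unadjusted p under 0.05, beside 16.3% of all tested rows. Other fits called more os rows and in both directions: DESeq2 called 20, of which 6 lower, limma-voom 13, of which 5 lower, and edgeR on the 8 compared libraries 25, of which 10 lower. The calls over the whole table, 87 in the main edgeR fit, rose as well, to 511, 284 and 656. The medians were 0.03 over os rows, 0.04 over partner rows and -0.03 over all.

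Slfn5os (chr11:82942341-82960681, minus strand) lies across the start of Slfn5, a member of the interferon-regulated Schlafen family, and 559 of its 1102 exon bases face Slfn5 exons. It held 35.7, 37.2, 32.0 and 29.4 CPM in vehicle, 76.0, 78.9, 71.9 and 47.9 at day 5, and 37.6, 35.0, 37.7 and 49.7 at day 10. All 4 day 5 libraries were above all vehicle libraries, and replicate 8 was the nearest to them. The log2 fold change was 1.03 (SE 0.18, edgeR adjusted p 0.0144). From day 5 to day 10 it fell by 0.78 (SE 0.19, 0.00999). Slfn5 held 2 counts over all 12 libraries against 1210 in Slfn5os, so its own row could not be followed. The promoter of Slfn5os is shown because this row had the largest called change at day 5 (RefSeq, GRCm38.p6, 5′ to 3′); capitals mark a match to CCAAT.
Slfn5os (chr11:82960632-82960931, minus strand): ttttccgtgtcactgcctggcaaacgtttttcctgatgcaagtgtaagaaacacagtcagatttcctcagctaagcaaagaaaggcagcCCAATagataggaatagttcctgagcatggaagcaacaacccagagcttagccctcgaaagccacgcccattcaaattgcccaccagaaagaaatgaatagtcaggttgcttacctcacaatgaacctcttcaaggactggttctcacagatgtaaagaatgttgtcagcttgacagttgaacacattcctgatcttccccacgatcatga
Promoters were searched on both strands for the motifs CCAAT and TATAAA, neither of which contains the other. The first of them, CCAAT, occurs in 37.9% of all promoters of the table and in 35.9% of the 181 os promoters found there, and TATAAA in 14.2% and 8.29%. Neither is in the Phf2 or Phf2os1 window.

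Galnt6os, inside the O-glycosylation enzyme gene Galnt6, held 188, 163, 199 and 189 CPM in vehicle, 339, 303, 261 and 229.7 at day 5, and 244, 207, 207 and 251 at day 10. The day 5 libraries were all above the vehicle libraries (0.62, SE 0.13, edgeR adjusted p 0.0384). The day 10 libraries were also all above vehicle, but the change of 0.30 (SE 0.14, 0.171) was not called. Galnt6 held 0 to 9 counts per library. Neither call was kept in all leave-out fits: the count of 2 became 1 without vehicle replicate 2 or 4, 4 without vehicle replicate 5, 0 without vehicle replicate 6 or day 5 replicate 5 or 6 (42, 34 and 41 at an unadjusted p under 0.05), and 18 without day 10 replicate 1. The 87 calls over the whole table became 13, 22 and 209 without vehicle replicate 2, 4 and 5. They became 12, 5 and 15 without vehicle replicate 6 and day 5 replicates 5 and 6, and 569 without day 10 replicate 1.

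At day 10 against day 5, edgeR called 29 of 195 os rows (14.9%), 14 higher and 15 lower, beside 10.1% of all tested rows (4.66% higher and 5.49% lower). It called 18 of 133 partner rows (13.5%), 10 higher and 8 lower. Unadjusted, 58 os rows (29.7%) and 36 partner rows (27.1%) had a p under 0.05, beside 24.7% of all tested rows. This comparison shares the day 10 libraries with the one against vehicle, so calls in both are not separate evidence.

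Several of the abundant os rows fell between day 5 and day 10. Plet1os held 1623, 1761, 1364 and 1307 CPM at day 5 and 1446, 542, 409 and 435 at day 10 (-1.09, SE 0.26, edgeR adjusted p 0.00978). Prss23os held 1405, 1272, 1139.8 and 1028 at day 5 and 887, 648, 572 and 778 at day 10 (-0.75, SE 0.16, 0.00567). Plet1os at day 10 was high in replicate 1 alone, while Prss23os and Brip1os did not overlap between the groups. Brip1os was at -0.62 (SE 0.13, 0.00467), Rab10os at -0.64 (SE 0.14, 0.00688) and Phtf1os at -0.97 (SE 0.19, 0.00378). In vehicle, Plet1os held 804, 1210.2, 997 and 940.3 CPM and Prss23os 743, 581, 1046 and 895, overlapping the day 10 range, and neither was called against vehicle at day 10 or day 5.

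Of the other lower os rows, Hopxos (-0.71, SE 0.15, edgeR adjusted p 0.00562), Chn1os3 (-0.60, SE 0.15, 0.0114), Nudt12os (-0.75, SE 0.21, 0.0264) and Rbm3os (-0.47, SE 0.15, 0.0408) did not overlap between the groups. Lrrc8dos, Dhrs13os and Slfn5os were lower as described above, and Ccdc34os, Arhgap20os and Frmd8os ranged from -0.95 to -0.79. Partners in this set include Hopx, an atypical homeodomain protein of epithelial stem cells, and Rbm3, a cold-induced RNA-binding protein. Of the 15 lower os rows, 13 have exons over partner exons, 1 over introns alone and 1, Brip1os, over another gene. Of the 14 higher ones, 10 have exons over partner exons and 4 over introns alone, beside 67.7% and 26.2% of the tested os rows.

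Nphs1os (1.64, SE 0.26, edgeR adjusted p 0.000904), Cdk19os and Rapgef3os1 (0.91, SE 0.26, 0.0271) had the largest rises. Srrm4os (0.67, SE 0.14, 0.00567), whose partner is a neural splicing factor, Ppp2r2cos (0.62, SE 0.14, 0.00593), and Plxna4os2 (0.48, SE 0.13, 0.0203) and Plxna4os3 (0.56, SE 0.17, 0.0349), which belong to a semaphorin receptor gene, rose as well. Srrm4os held 164, 163, 228 and 224 CPM at day 5 and 248, 325, 323 and 339.8 at day 10, with 252, 303, 252 and 234 in vehicle. The day 5 libraries were thus the low ones, replicate 1 of day 10 being near vehicle. Dnmt3aos (0.72, SE 0.20, 0.0207), Fhad1os1 (0.78, SE 0.16, 0.00459), Zmiz1os1 (0.66, SE 0.16, 0.0103), Tnk2os (0.63, SE 0.19, 0.0350) and Sap30bpos (0.59, SE 0.19, 0.0457) complete the list with Zfhx2os and Atcayos.

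Both rows of a pair were called in 3 pairs, in the same direction each time, among 129 pairs with both rows tested. Over all 2660 opposite-strand pairs of the annotation with both rows tested, both were called in 74, of which 64 went the same way. Atcayos held 55.2, 53.4, 56.5 and 60.5 CPM at day 5 and 68.4, 100.2, 82.9 and 103 at day 10 (0.65, SE 0.16, edgeR adjusted p 0.0109). Atcay, which codes for the neuronal protein caytaxin, held 2.12, 9.14, 5.14 and 3.53 at day 5 and 10.3, 15.8, 12.6 and 21.7 at day 10 (1.59, SE 0.38, 0.0101). Neither row overlapped between the groups, and vehicle, with 68.5, 78.9, 77.1 and 86.5 for Atcayos and 10.4, 11.5, 9.64 and 10.9 for Atcay, was above day 5 in both.

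Zfhx2 held 88.8, 106, 134 and 87.2 CPM at day 5, 118, 211, 222 and 231 at day 10 and 187, 217, 119 and 159 in vehicle. Its rise from day 5 to day 10 was 0.91 (SE 0.20, edgeR adjusted p 0.00587), beside 0.63 (SE 0.14, 0.00709) for Zfhx2os. The 2 rows of this pair differed in vehicle: Zfhx2os was no higher there than at day 5, while Zfhx2 was at -0.72 (SE 0.20, 0.0743) at day 5 against vehicle, just outside the threshold. The third pair was Rapgef3os1 with Rapgef3 (1.96, SE 0.55, 0.0243), where Rapgef3 held 2 to 18 counts per library.

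In the remaining pairs with both rows tested, 16 had a call in the os row alone and 12 in the partner row alone. Partner rows called with no call in their os row included Cebpz (-0.68, SE 0.14, edgeR adjusted p 0.00467), Wdr83 (-0.50, SE 0.14, 0.0210), Recql5 (0.80, SE 0.21, 0.0147), Kirrel3 (0.46, SE 0.14, 0.0442), an adhesion molecule of sensory axons, and Sspn (-1.28, SE 0.36, 0.0269). Arf4 (-1.14, SE 0.29, 0.0145), Mettl5 (-0.93, SE 0.26, 0.0233), Far2 (-0.52, SE 0.15, 0.0325) and Pigb (-0.43, SE 0.12, 0.0292) fell, and Mypop (0.60, SE 0.18, 0.0362) and Prox2 (0.43, SE 0.12, 0.0290) rose. Grin1 (0.48, SE 0.11, 0.00822), Phf2 (0.88, SE 0.25, 0.0280) and Ccpg1 (-0.64, SE 0.19, 0.0319) kept their direction from the comparison with vehicle. For Far2, Mettl5 and Pigb the os rows held at most 11 counts in a library and were not tested. These partners are thus outside the pairs with both rows tested, and their os rows could not be called. The signs of the 2 fold changes were equal in 95 of 129 pairs (73.6%), beside 58.8% of the 2660 pairs; against vehicle they were equal in 60.5% at day 10, beside 62.6%, and in 62.0% at day 5, beside 52.6%. Pairs of the same partner are not independent of each other.

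**Figure D4:**
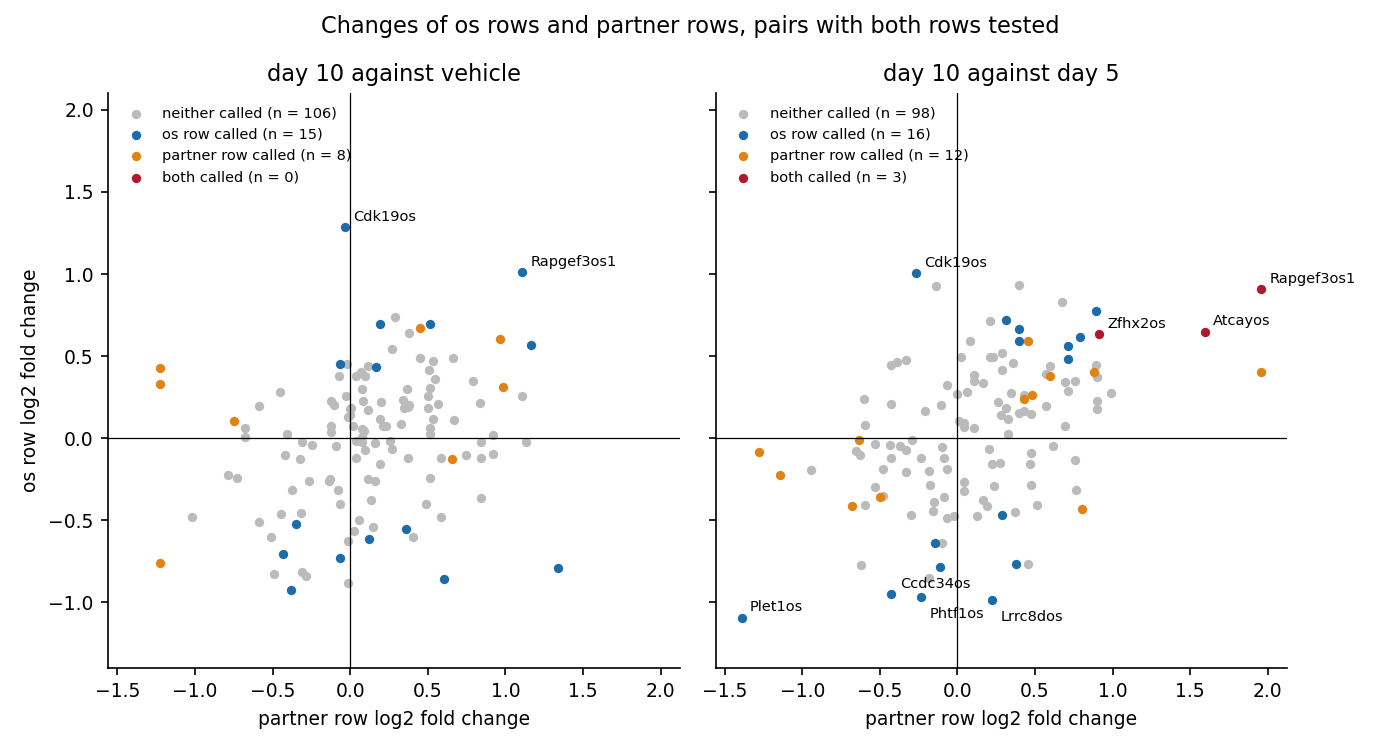
Log2 fold change of the os row (vertical axis) against that of its partner row (horizontal axis) for 129 pairs with both rows tested, day 10 against vehicle on the left and day 10 against day 5 on the right; colours show which row edgeR called. Both rows are called in 3 pairs on the right, Rapgef3os1, Atcayos and Zfhx2os with their partners, and in none on the left.

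The count of 29 os rows became 50 without day 10 replicate 1 and 19 without day 10 replicate 2 or 5, and 15 of the 29 were called in all 12 leave-out fits. The calls over the whole table, 1337 with all libraries, became 2689, 629 and 623 without day 10 replicate 1, 2 and 5. The count of 18 partner rows became 31 without day 10 replicate 1 and 7 to 10 without each of the other exposed libraries. With the share of CT010467.2 as a covariate edgeR called 0 of them (28 os rows at an unadjusted p under 0.05), and without day 10 replicates 2, 3 and 5 also 0 (16 unadjusted). Over the whole table these fits called 2 and 0 rows. The median GC content was 52.3% for the higher and 47.8% for the lower os rows.

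Finally, each os row was set against its partner within the same library, as log2 of the ratio of the counts with 0.5 added to each, which needs no scaling between libraries. An exact two-sided permutation test of 4 against 4 libraries cannot give a p under 0.0286. Over 153 pairs and 3 comparisons, 459 tests in all, the smallest Benjamini-Hochberg adjusted p was 0.486, so 0 pairs passed in each comparison by the exact test. The groups did not overlap in 10 pairs at day 10 against vehicle, 9 at day 5 against vehicle and 7 at day 10 against day 5, each with the exact p of 0.0286, beside 6.80%, 10.6% and 11.0% of the 3060 opposite-strand pairs followed the same way. With limma over these 3060 pairs, 22, 12 and 19 of the 153 had an unadjusted p under 0.05. After adjustment limma called 0, 0 and 1 of them, beside 0.00%, 0.0654% and 4.28% of all pairs.

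The 1 pair called by limma was Phtf1os with Phtf1 at day 10 against day 5. Its log2 ratio was 2.18, 1.91, 2.01 and 2.28 at day 5 and 1.61, 1.26, 1.18 and 1.20 at day 10, with 1.58, 1.38, 1.82 and 1.75 in vehicle. Day 5 was above both other groups without overlap. The ratio fell by 0.78 between day 5 and day 10.

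The pairs named next had the largest differences of the ratio between day 10 and vehicle among the 10 whose groups did not overlap. They were chosen for that difference, so their values are a description. For Dhrs13os the log2 ratio was 5.80, 5.83, 4.89 and 6.17 in vehicle and 4.16, 2.76, 4.26 and 3.08 at day 10, a difference of -2.11. For Cdk19os it was 1.80, 3.06, 2.39 and 2.17 in vehicle and 3.39, 3.27, 3.44 and 4.50 at day 10, a difference of 1.30. Replicate 1 of day 10 was on the side of the other day 10 libraries in both. The 2 Rapgef4 pairs, which share the partner row, both had a higher ratio at day 10, Rapgef4os1 by 1.60. Trp73os differed by -1.14 and Has2os by -1.08. Trp73 is a p53 family factor needed for multiciliated cells, and Has2 makes hyaluronan. Trp73os held 1824 counts against 258 in Trp73, and Has2os 582 against 239 in Has2. Trp73 was at 1.13 (edgeR adjusted p 0.0700) and Trp73os at -0.03 at day 10 against vehicle, and no row of these last pairs was called in any comparison.

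**Figure D5:**
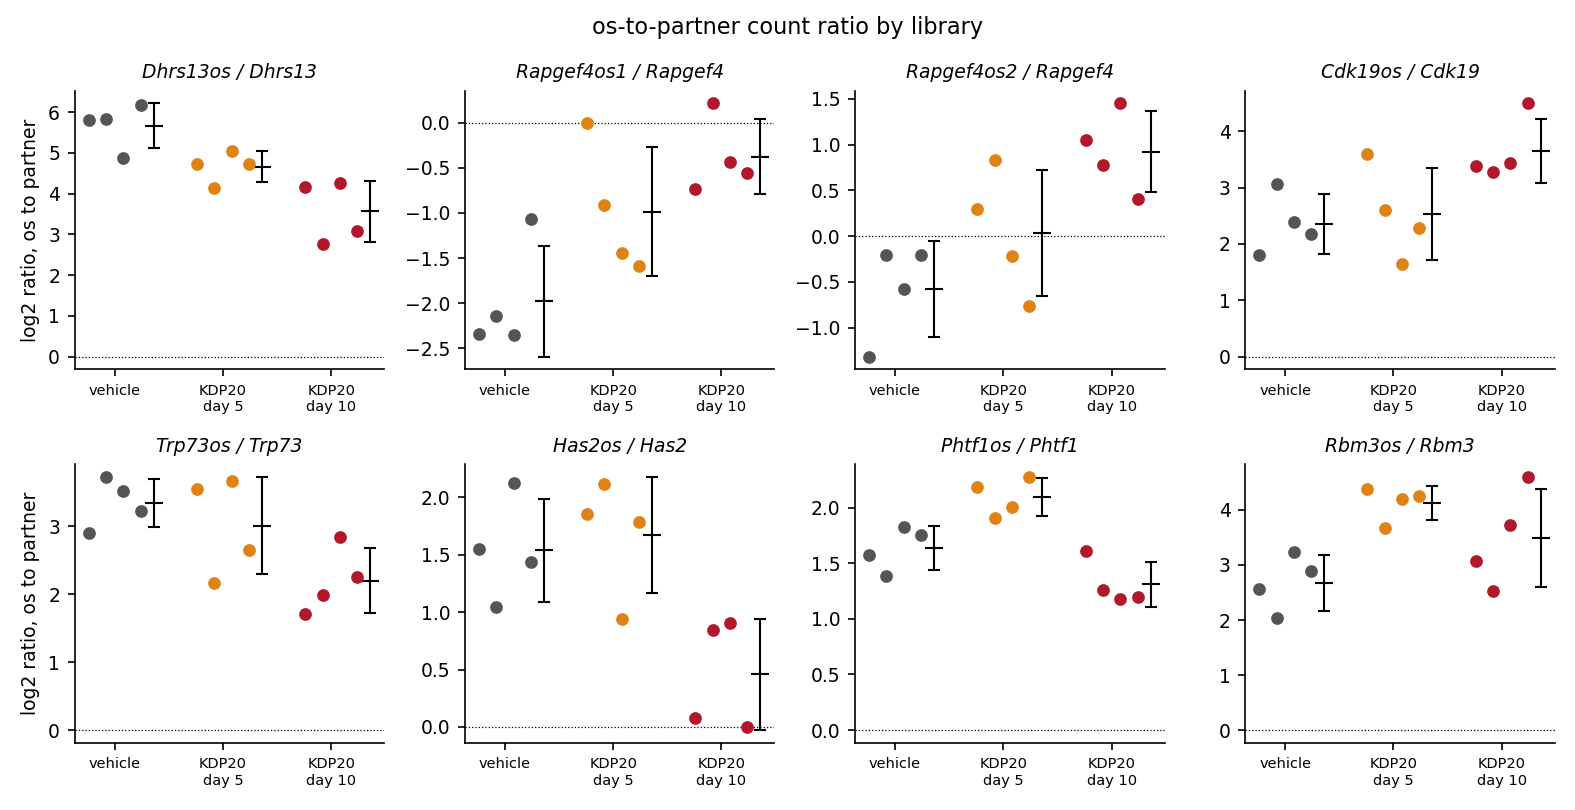
Log2 of the os-to-partner count ratio in each library for 8 pairs, in the order of replicate number within a group, with bars for the mean and SD of 4 libraries and a dotted line at equal counts. In Dhrs13os, Trp73os and Has2os the day 10 libraries lie below all vehicle libraries, in Cdk19os and the Rapgef4 pairs above them, and in Phtf1os and Rbm3os day 5 lies above vehicle.

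Rbm3os showed the largest shift of the ratio at day 5 that did not overlap with vehicle, with 2.56, 2.04, 3.24 and 2.88 in vehicle and 4.37, 3.68, 4.20 and 4.25 at day 5, a difference of 1.44. At day 10 its values of 3.07, 2.54, 3.73 and 4.60 reached into both groups. Tmcc3os was the next, with a difference of -1.37 at day 5.

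Antisense transcripts under other names were read from the same fit. Of 11 such symbols fixed for this purpose, 9 had a row and 2 passed the filter. Kcnq1ot1, the antisense RNA of an imprinted domain, held 71185 counts over the 12 libraries, more than any os row, and was at -0.44 (SE 0.15, edgeR adjusted p 0.0763) at day 10 against vehicle. Snhg14, the transcript that runs antisense to Ube3a, held 15213 counts and was called lower at day 10 against vehicle (-1.06, SE 0.23, 0.0102) and against day 5 (-1.19, SE 0.23, 0.00327).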

How the data were processed

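RNA-seq counts per gene were used for 12 nasal libraries of 3 groups of 4. The labels name the RNeasy mini plus kit and the SMARTER mRNA-Seq kit. The authors deposited whole-number counts per gene; the submitters' processing notes name FastQC, Trim Galore, STAR, HTSeq and mm10, with no versions, and a strand setting and counting mode were not found in the parts of them read here. The members and lists were chosen with earlier results of these data known. Os rows were those whose symbol ends in os or in os and digits and whose stripped symbol also had a row; 1 such row and a few named by the rule below are not reported here. Positions came from GENCODE M21 (GRCm38) with bedtools 2.31.1, and sequences from RefSeq (GRCm38.p6).

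Rows passing filterByExpr (13181, holding 98.27% of counts) were fitted in 1 edgeR 4.0.16 quasi-likelihood model over the 3 groups (R 4.3.3), with TMM scaling and Benjamini-Hochberg adjustment over all tested rows at a threshold of 0.05. CPM use the TMM library sizes over tested rows, and the detection floor the total counts. The fit was tested on simulated counts. Ratios used a pseudocount of 0.5 in pairs with a mean of 5 counts or more in both rows, tested by exact permutation (Python 3.11.15, scipy 1.17.1) and, over all opposite-strand pairs, by limma 3.58.1. Named pairs were those with a call, the 10 with the most os counts, the 5 highest and 5 lowest ratios, the 6 largest ratio differences between day 10 and vehicle without overlap, and Cdk19os, Nphs1os, Grin1os and Slfn5os; rows named outside this rule, such as those of partners with several os rows, were chosen after their values were seen. Alternatives were other scalings, filters, DESeq2 1.42.0, limma-voom, a replicate block, the 8 compared libraries alone and each library left out. A further 4 fits were added once the data had been seen: a correction for GC (loess span 0.5), the CT010467.2 share as covariate, the fit without that row and the fit without day 10 replicates 2, 3 and 5.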

Additional observations from a re-analysis of the deposited data

Results flagged for a closer look

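The change from day 5 to day 10, which tests whether the 2 exposed groups differ from vehicle by different amounts, passed the edgeR threshold for 11 rows named in the comparison of an exposed group with vehicle. The log2 fold changes were 1.64 for Nphs1os, 1.01 for Cdk19os, 0.91 for Rapgef3os1, 0.63 for Zfhx2os, 0.88 for Phf2 and 0.48 for Grin1. They were -0.99 for Lrrc8dos, -0.97 for Phtf1os, -0.78 for Slfn5os, -0.77 for Dhrs13os and -0.64 for Ccpg1. Of these, Slfn5os is the row that was called at day 5 and not at day 10 against vehicle, and the others were called at day 10 and not at day 5.

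In 8 of 189 groups of 4 libraries, a single library lay far from the other 3 by Dixon's criterion, which chance meets in about 1 in 20 groups. At day 10 these were replicate 1 for Plet1os (1446 CPM) and for Rapgef3os1 (17.0 CPM), and replicate 3 for Kirrel3 (142 CPM). At day 5 they were replicate 8 for Phtf1os (548 CPM), Rbm3os (244 CPM) and Phf2 (20.2 CPM), and replicate 6 for Rab10os (531 CPM) and Arhgap33 (64.4 CPM).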

How the results depend on the processing

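Over all alternatives, the fold changes of the named rows kept their direction and their side of the threshold in 1426 results, kept their direction without the call in 553 and changed sign in 10. Sign changes occurred with the CT010467.2 share as covariate or without day 10 replicates 2, 3 and 5. At day 10 against vehicle, Kdm6bos was at -0.0057 and Lef1os1 at -0.039 with the covariate, and Phtf1os at 0.038 and 0.023, Runx2os2 at 0.26 and 0.12 and Ino80d at -0.18 and -0.095 in the 2 settings. At day 10 against day 5 without those libraries, Rapgef3os1 was at -0.0011 and Phf2 at -0.0095. In all of these the cause was not tested, and the second setting leaves 1 day 10 library, assumed to vary like the other groups.

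At day 10 against vehicle the 18 os and 7 partner calls became 29 and 12 with DESeq2, 6 and 2 with the 8 compared libraries alone, 7 and 4 with the GC correction, and 0 and 0 with the covariate or without the 3 libraries; leaving out each library gave 2 to 45 and 0 to 29. At day 5 against vehicle the 2 os and 0 partner calls became 6 and 2 without a filter, 20 and 5 with DESeq2, 13 and 1 with limma-voom, 25 and 5 with the 8 libraries, 11 and 4 with the covariate and 18 and 5 without the 3 libraries; a filter of 10 CPM gave 4 os calls, the GC correction 1 partner call, and leaving out each library 0 to 18 and 0 to 4. At day 10 against day 5 the 29 os and 18 partner calls became 0 and 0 with the covariate or without the 3 libraries, and 19 to 50 and 7 to 31 with each library left out. Over the whole table the calls moved as well. At day 10 against vehicle the main edgeR fit called 933, DESeq2 1281, the 8 libraries 423 and the GC correction 403. At day 5 against vehicle the main fit called 87, no filter 278, DESeq2 511, limma-voom 284, the 8 libraries 656 and the covariate 370. In that comparison a filter of 10 CPM gave 135 and the GC correction 125. The exact test of the ratio, with its smallest p and 459 tests, could hardly pass the threshold, so its count of 0 says nothing about stability. By limma, 1 pair was called at day 10 against day 5 (19 at an unadjusted p under 0.05).

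Replicate numbers did not pair the libraries: deviations of same-numbered libraries correlated at -0.09 to 0.12. Most replicate numbers belong to a single library, which a replicate block fits exactly. These are vehicle replicate 4, day 5 replicates 7 and 8, and day 10 replicates 1 and 3. They then add nothing to the comparisons, and few libraries remain to estimate the spread. With this block edgeR called 38 os and 17 partner rows at day 10 against vehicle. It called 3 and 0 at day 5 against vehicle, and 20 and 9 at day 10 against day 5. Over the whole table it called 1701, 33 and 958 rows, beside 933, 87 and 1337 without the block. With the block limma called 1 ratio at day 10 against vehicle. Of the 259 partner rows, 126 were too low to test, and the part of depth in this was not tested.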
